A study of Homo sapiens with 12 samples.

Results

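Interferon stimulated genes were examined in 3 head and neck cancer cell lines, where parental cells and an invasive subline of each line were profiled. The 41 genes followed were a hand-assembled list of classic interferon targets, and a gene was taken when a probe set carried its symbol alone. Of the 41, 40 were on the array among 11963 genes in all, each represented by its probe set of highest mean over the 12 arrays. STAT2 is named only. A gene was tested when at least 2 arrays lay above a dim limit, set at 4.52 on the log2 scale, the 40th percentile of the table. In all 39 of the 40 passed this filter and 8992 genes were tested, while CXCL11 lay below the limit on every array.

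The labels call the lines Detroit, Fadu and OECM1. Fadu derives from a squamous carcinoma of the hypopharynx and OECM1 from one of the oral cavity; the labels give no more than Detroit for the remaining line. The invasion sublines were highly invasive cells collected by a Matrigel invasion method, Matrigel being a basement membrane extract, and the labels name no other treatment, interferon included. Each of the 6 groups (parent and invasion subline of each line) held 2 arrays, and the labels do not say whether the 2 came from separate cultures, so each p-value measures the spread between these arrays alone and that spread may be technical.

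Interferons are secreted proteins that cells release on sensing viral or misplaced nucleic acids. Type I and type III interferons signal through JAK1 and TYK2 to a complex that holds IRF9 and binds a DNA element called the interferon stimulated response element (ISRE) near its target genes; the gamma activated site (GAS) is a DNA element of the response to interferon gamma. Some tumour cells keep part of this programme switched on without added interferon, and its members include sensors, antiviral enzymes, membrane proteins that trap or block viruses, and chemokines.

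Promoter sequences are shown for the members on which the results turn, because type I and type III interferons act through the ISRE. The list itself was assembled by hand and not by this element. RefSeq promoters (GRCh38.p14, 250 bases before to 50 after the start site) matched 33 of the 41 members. The motifs searched, on both strands and with overlapping matches counted apart, were the ISRE core GAAANNGAAA and the GAS core TTCNNNGAA. The ISRE core was in 21 of 33 member promoters (63.6%) and in 3.65% of 27305 promoters of the same length. BST2, the member that differed most between the Fadu subline and its parent, had a pair of overlapping matches beginning 130 and 124 bases before the start site, and UBE2L6, which had the smallest adjusted p between lines, had none in its window. The 250 bases before the start site of both are given 5′ to 3′ on the strand of the gene, with the ISRE core in capitals.
BST2, chr19:17405631-17405880, - strand: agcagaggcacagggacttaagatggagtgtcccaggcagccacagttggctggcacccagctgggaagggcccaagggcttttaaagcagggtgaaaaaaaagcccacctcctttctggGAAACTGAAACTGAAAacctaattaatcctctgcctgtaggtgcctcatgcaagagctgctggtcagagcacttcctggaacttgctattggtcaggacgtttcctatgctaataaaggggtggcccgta
UBE2L6, chr11:57567936-57568185, - strand: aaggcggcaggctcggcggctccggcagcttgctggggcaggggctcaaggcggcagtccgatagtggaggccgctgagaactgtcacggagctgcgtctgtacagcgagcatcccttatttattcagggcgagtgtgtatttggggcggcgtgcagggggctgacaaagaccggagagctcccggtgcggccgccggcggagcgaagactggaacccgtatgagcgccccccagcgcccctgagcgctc

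Shorter windows, with 15 bases on either side of the matches, are shown for 7 members that differed between groups and for PARP12, the 1 member with all 4 OECM1 arrays above all 4 Fadu arrays. Capitals mark the ISRE core as read on the strand of the gene, and a match on the opposite strand reads as its reverse complement.
ISG15, chr1:1013369-1013414, + strand: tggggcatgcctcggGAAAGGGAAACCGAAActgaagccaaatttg
HERC5, chr4:88456979-88457069, + strand: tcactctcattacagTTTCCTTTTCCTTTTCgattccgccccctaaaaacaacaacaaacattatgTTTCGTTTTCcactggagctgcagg
IFIT1, chr10:89392492-89392544, + strand: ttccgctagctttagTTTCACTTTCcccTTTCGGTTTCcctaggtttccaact
IFITM3, chr11:320871-320927, - strand: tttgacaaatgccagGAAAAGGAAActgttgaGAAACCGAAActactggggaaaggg
ISG20, chr15:88638932-88638971, + strand: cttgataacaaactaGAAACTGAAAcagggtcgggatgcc
IFI27, chr14:94110613-94110665, + strand: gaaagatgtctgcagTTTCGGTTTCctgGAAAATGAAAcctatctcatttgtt
IFI44, chr1:78649756-78649795, + strand: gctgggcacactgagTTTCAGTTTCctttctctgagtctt
PARP12, chr7:140062937-140062976, - strand: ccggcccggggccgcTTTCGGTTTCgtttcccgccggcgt

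The matches of ISG15 overlapped and began 113 and 107 bases before the start site, and those of IFIT1 lay on the opposite strand at 116 and 103 bases before it. IFI27 had a match on each strand, while ISG20, IFI44 and PARP12 had 1 match each. In all, 13 members had at least 2 matches and 12 had 0, the latter being RIGI, IFI16, STAT2, IRF1, IRF9, UBE2L6, HERC6, OAS1, RSAD2, SP110, IFI35 and CXCL11. The GAS core was in 9 of 33 member promoters (27.3%) against 7.88% of all promoters. A match is a description of the letters and not a measured site, and a window with 0 matches says only that these letters are not in it.

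Values are on the log2 scale of the authors' RMA (robust multi-array average), on which a difference of 1 is 2-fold; RMA compresses low values, so differences between dim genes are understated. Array medians lay between 4.92 and 5.06. Every group carried the epithelial label: 6 of 6 epithelial markers on the array lay above the dim limit on both arrays of all 6 groups, while at most 1 of 7 leukocyte, 1 of 5 endothelial and 3 of 6 fibroblast markers did. Of 5 squamous markers, 5 lay above it on both arrays of both Fadu groups and of the subline labelled Detroit, 4 in both OECM1 groups and 3 in the Detroit parent. Their summed log2 levels were 44.7 and 47.2 for the subline labelled Detroit, 42.4 to 44.8 in Fadu, 34.71 to 38.97 in OECM1 and 34.1 to 34.2 in the Detroit parent. Across all genes the arrays labelled Detroit invasion subline stood nearer to the Fadu parent (r = 0.961 over 8992 genes, which are not independent replicates) than to the Detroit parent (r = 0.881), so every Detroit subline value compares groups as labelled. The ACTB control, as its 3 prime minus its 5 prime signal, a measure that can follow RNA quality, ran from -0.28 to 0.87 over the arrays. It differed within the duplicates of every group but the Detroit parent, where it was close (-0.03 and -0.10). The 18S ribosomal RNA control read 12.68 on Fadu invasion subline replicate 1 and 5.24 to 7.68 on the other arrays.

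The interferon stimulated genes were high in Fadu, intermediate in the Detroit parent and low in OECM1. For 36 of 40 members the highest of the 6 group means lay in a Fadu group (20 in the subline, 16 in the parent). The lowest lay in an OECM1 group for 33 of 40. The share of all genes with either placing is not given here. Among the parents, the order Fadu, Detroit, OECM1 from high to low held for 33 of 39 tested members and for 15.9% of all tested genes. The median over the 40 members was 7.71 and 6.38 on the Fadu parent arrays (replicate 1 first, here and below), 5.79 and 5.71 on the Detroit parent arrays and 4.57 and 4.69 on the OECM1 parent arrays. In OECM1 14 of 40 members lay below the dim limit on both parent arrays and 14 on both subline arrays. There were 1 in each Fadu group, 5 for the Detroit parent and 6 for the subline labelled Detroit. Of all genes on the array, 27.5% to 30.4% did so in the 6 groups, and the Fadu counts stood furthest from this share. The arrays' values for all members are drawn in the heat map by role.

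**Figure D1:**
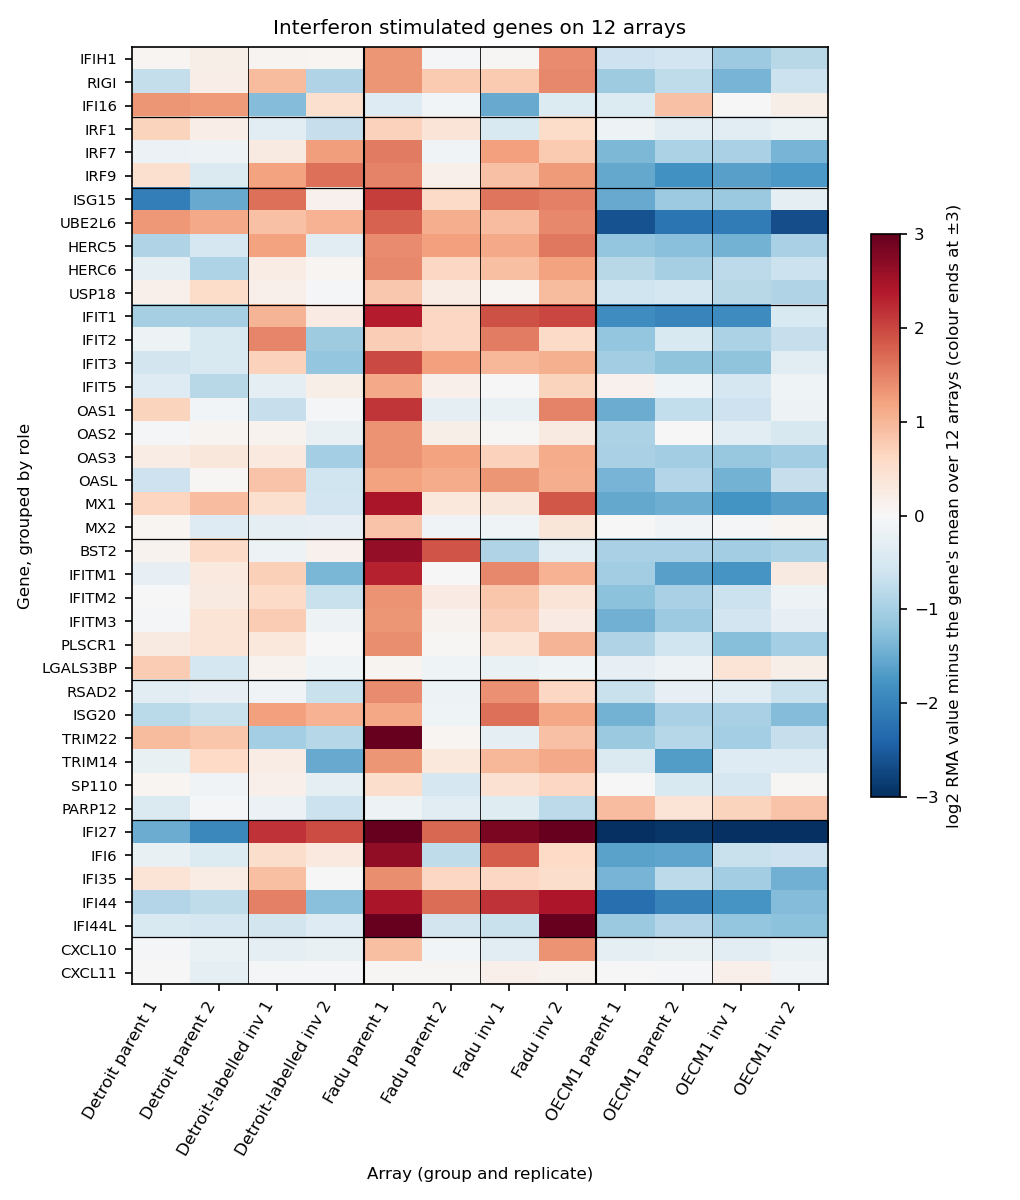
Each row is 1 of 40 genes, grouped by role between horizontal lines, each column is 1 of 12 arrays, and colour is the log2 RMA value minus the mean of that gene over the 12 arrays. Most rows are red on the Fadu arrays and blue on the OECM1 arrays, PARP12 runs the other way, and Fadu parent 1 is redder than Fadu parent 2 in nearly every row.

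The parent comparisons asked how far the lines differ in these genes before selection. Between the OECM1 and Fadu parents, 16 of 39 members were lower in OECM1 and 0 were higher (limma, Benjamini-Hochberg adjusted p under 0.05), against 1.50% of all tested genes lower and 1.43% higher. The median over the members was -1.97 on the log2 scale, against -0.03 over all tested genes, and 31 of 39 members were more than 2-fold lower against 5.55% of all genes. Between the Fadu and Detroit parents 7 members were higher in Fadu and 0 lower, against 1.29% of all genes in either direction, with a median of 0.81 against -0.02. Between the OECM1 and Detroit parents 1 member was lower in OECM1 and 0 higher, against 1.53% and 1.87% of all genes, with a median of -0.92 against -0.05. The 3 comparisons share their parent arrays and are given side by side. Keratins moved with the lines too: KRT14, a squamous marker, was higher in the Fadu than in the Detroit parent (4.81) and lower in OECM1 than in Fadu (-4.45), and the epithelial marker KRT19 was lower in OECM1 than in Detroit (-4.16) and Fadu (-3.35), each passing with limma. DSG3 (3.24) and DSC3 (1.58), also squamous markers, were higher in the OECM1 than in the Detroit parent, against the members' order. DSC3 was higher in the Fadu than in the Detroit parent too (1.57). These differences also passed with limma. The part of all these markers in the members' differences was not tested.

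Over parents and sublines together, 28 of 39 members had all 4 OECM1 arrays below all 4 Fadu arrays, a pattern seen in 12.2% of all tested genes. PARP12 alone ran the other way, with all 4 OECM1 arrays above; together 24.2% of all genes had 1 of the 2 patterns. In 17 of 39 members all 4 OECM1 arrays lay below all 4 arrays labelled Detroit (5.29% of all genes), and in 5, HERC6, IFIT3, OAS3, OASL and IFI44, all 4 arrays labelled Detroit lay below all 4 Fadu arrays (3.77%).

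The calls between OECM1 and Fadu depend on single arrays. Each array left out leaves 1 array in its group. The matching counts over all genes are not given, so a fall in calls cannot be read as particular to the members. Without Fadu parent replicate 1 there were 3 members lower in OECM1, namely UBE2L6, BST2 and IFI27, without OECM1 parent replicate 1 there were 4, and without OECM1 parent replicate 2 there were 9; the median over the members was -1.33 without Fadu parent replicate 1. Between the Fadu and Detroit parents, 1 member stayed above the threshold without Fadu parent replicate 1 (IFI27, with a median over the members of 0.11) and 2 without Detroit parent replicate 1 or 2.

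**Figure D2:**
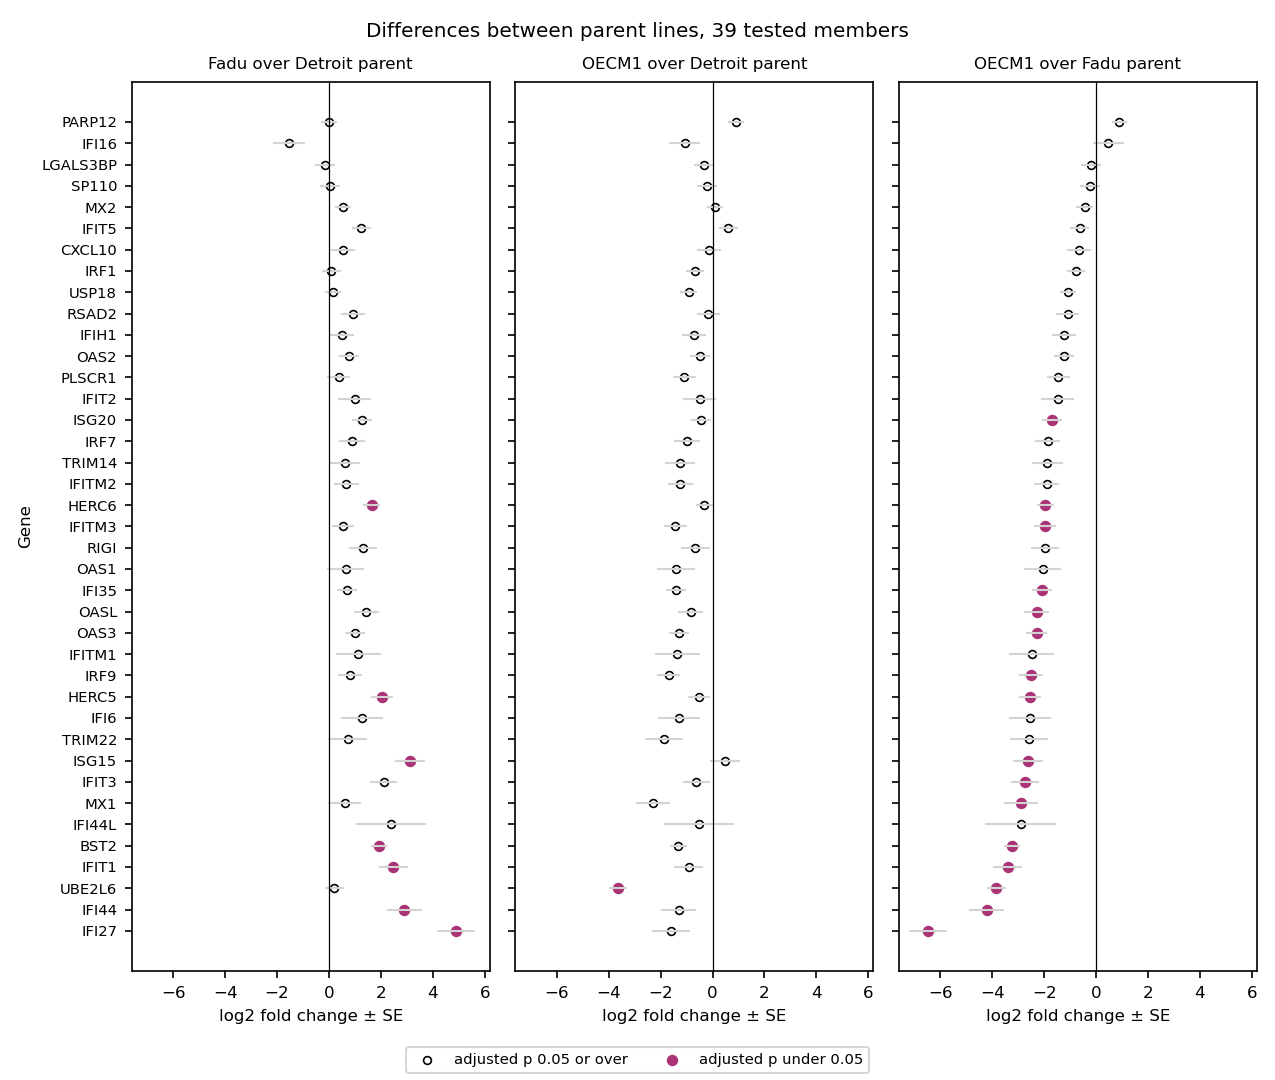
Log2 fold change (points) and its SE from limma (bars) for the 39 tested members between the 3 pairs of parents, with genes ordered by the OECM1 to Fadu difference. Filled points passed an adjusted p of 0.05: 7 higher in Fadu than in Detroit, 1 lower in OECM1 than in Detroit and 16 lower in OECM1 than in Fadu.

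The sensors are proteins that detect nucleic acids: RIGI and IFIH1 (MDA5) bind viral RNA in the cytoplasm, and IFI16 binds DNA. None of the 3 differed between parents by the test. IFI16 had the widest range of the 3 and did not follow the order of the other members. It read 9.60 and 9.57 on the Detroit parent arrays, 7.89 and 8.20 on those of Fadu, and 7.87 and 9.16 on those of OECM1. In the sublines it read 6.98 and 8.76 on the arrays labelled Detroit, 6.77 and 7.88 on those of Fadu, and 8.28 and 8.46 on those of OECM1. The Detroit parent arrays were thus the highest and overlapped no other group, and the Fadu to Detroit difference of -1.54 was of the opposite sign to that of all but 1 other member. RIGI lay below the dim limit on all 4 OECM1 arrays (3.60 to 4.35) and between 5.78 and 6.44 on the Fadu arrays, and IFIH1 was also below the limit on all 4 OECM1 arrays.

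Of the transcription factors, IRF9 is the DNA-binding subunit of the complex that type I interferons activate, IRF7 drives the interferon genes themselves, and IRF1 acts downstream of interferon gamma. IRF9 read 7.42 and 6.51 on the Detroit parent arrays, 8.45 and 7.11 on those of Fadu, and 5.41 and 5.14 on those of OECM1. In the sublines it read 8.17 and 8.60 on the arrays labelled Detroit, 7.85 and 8.24 on those of Fadu, and 5.33 and 5.22 on those of OECM1. All 4 OECM1 arrays lay below the other 8, and IRF9 was lower in the OECM1 than in the Fadu parent (log2 fold change -2.50, SE 0.457, adjusted p = 0.0139, limma). The OECM1 to Detroit difference, -1.69, missed the threshold (adjusted p = 0.0716, limma). IRF7 lay below the dim limit on all 4 OECM1 arrays and its OECM1 to Fadu difference was -1.87 (adjusted p = 0.0710, limma), and IRF1 lay between 5.50 and 6.88 on all arrays.

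The ISG15 system attaches the ubiquitin-like protein ISG15 to other proteins through the conjugating enzyme UBE2L6 and the ligase HERC5, with HERC6 a related gene, and USP18 takes it off again. In this group 4 of 5 members were lower in the OECM1 than in the Fadu parent, with a median of -2.54. UBE2L6 read 8.07 and 7.89 on the Detroit parent arrays, 8.54 and 7.84 on those of Fadu, and 4.14 and 4.56 on those of OECM1. In the sublines UBE2L6 read 7.63 and 7.79 on the arrays labelled Detroit, 7.70 and 8.19 on those of Fadu, and 4.67 and 4.10 on those of OECM1. Detroit and Fadu overlapped, and all 4 OECM1 arrays were near or below the dim limit. The OECM1 parent was lower than the Detroit parent by a log2 fold change of -3.63 (SE 0.352, adjusted p = 0.000236, limma) and than the Fadu parent by -3.84 (SE 0.352, adjusted p = 0.000331, limma). The UBE2L6 calls were kept under every alternative run.

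ISG15 itself ranked the lines differently. It read 7.26 and 7.83 on the Detroit parent arrays, 11.39 and 9.91 on those of Fadu, and 7.81 and 8.24 on those of OECM1. The Detroit and OECM1 parent arrays overlapped, and both Fadu arrays were above them. The Fadu parent was higher than the Detroit parent by 3.11 (SE 0.578, adjusted p = 0.0185, limma), 8.63-fold, and the OECM1 parent was lower than the Fadu parent by -2.62 (adjusted p = 0.0360, limma). HERC5 and HERC6 were higher in the Fadu than in the Detroit parent (2.03 and 1.64) and lower in the OECM1 than in the Fadu parent (-2.54 and -1.95), with HERC5 dim on all 4 OECM1 arrays. USP18 did not pass in any parent comparison, with an OECM1 to Fadu difference of -1.08.

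The IFIT proteins bind foreign RNA, the OAS enzymes make the 2-5A messenger that activates an RNA-degrading enzyme, and MX1 and MX2 are GTPases that block viral replication. In this group 5 of 10 members (IFIT1, IFIT3, OAS3, OASL and MX1) were lower in the OECM1 than in the Fadu parent, with a median over the 10 of -2.17. IFIT1 read 5.42 and 5.43 on the Detroit parent arrays, 8.77 and 7.05 on those of Fadu, and 4.57 and 4.45 on those of OECM1. The 3 pairs did not overlap, and IFIT1 was called between Fadu and Detroit (2.48, adjusted p = 0.0462, limma) and between OECM1 and Fadu (-3.40, SE 0.564, adjusted p = 0.00840, limma). MX1 read 6.61 and 6.90 on the Detroit parent arrays, 8.42 and 6.29 on those of Fadu, and 4.44 and 4.50 on those of OECM1. The Detroit arrays lay between the Fadu duplicates, and both OECM1 arrays lay below all of these (-2.88 against Fadu, adjusted p = 0.0383, limma). IFIT3, OAS3 and OASL had OECM1 to Fadu differences of -2.73, -2.29 and -2.29.

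The other 5 did not pass in any parent comparison. IFIT2, IFIT5, OAS1, OAS2 and MX2 had OECM1 to Fadu differences between -2.05 (OAS1) and -0.44 (MX2). Their arrays spread widely: OAS1 read 7.28 and 4.85 in the Fadu parent, and MX2 was above the dim limit on only 2 of 12 arrays. Another OAS1 probe set gave a Fadu to Detroit difference of -0.62 where the one used gave 0.65, so its direction between these lines is not settled.

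Among membrane proteins, BST2 (tetherin) holds budding virus at the cell surface, the IFITM proteins block viral entry, PLSCR1 is a scramblase of membrane lipids, and LGALS3BP is a secreted glycoprotein that binds galectins. BST2 read 5.79 and 6.24 on the Detroit parent arrays, 8.31 and 7.55 on those of Fadu, and 4.69 and 4.70 on those of OECM1. The 3 pairs did not overlap. The Fadu parent was higher than the Detroit parent (1.92, SE 0.319, adjusted p = 0.0100, limma), the OECM1 parent was lower than the Fadu parent (-3.24, SE 0.319, adjusted p = 0.000516, limma), and the OECM1 to Detroit difference of -1.31 just missed the threshold (adjusted p = 0.0508, limma).

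IFITM3, bright in every group, read 10.50 and 10.98 on the Detroit parent arrays, 11.89 and 10.67 on those of Fadu, and 9.13 and 9.49 on those of OECM1. Both OECM1 arrays lay below the other 4, with a difference from Fadu of -1.97 (adjusted p = 0.0371, limma). IFITM2 had a similar difference, -1.90, that missed the threshold (adjusted p = 0.0660, limma). The IFITM1, IFITM2 and IFITM3 sequences are alike, so their probe sets can share signal. LGALS3BP was nearly level, between 9.47 and 10.77 on all 12 arrays, and PLSCR1 had an OECM1 to Fadu difference of -1.45 that did not pass.

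Of the other antiviral genes, ISG20 is an RNA exonuclease, RSAD2 (viperin) makes a chain-ending nucleotide, TRIM22 and TRIM14 belong to the tripartite motif family, SP110 is a nuclear body protein, and PARP12 transfers ADP-ribose. Only ISG20 of these 6 differed between parents by the test, lower in OECM1 than in Fadu by -1.70 (SE 0.387, adjusted p = 0.0408, limma). TRIM22 had the widest range, at 5.35 and 5.22 on the Detroit parent arrays, 7.54 and 4.46 on those of Fadu, and 3.27 and 3.54 on those of OECM1. The Fadu parent duplicates lay on either side of the Detroit arrays, and the OECM1 to Fadu difference of -2.60 was not called (adjusted p = 0.0983, limma). PARP12 read 5.59 and 5.98 on the Detroit parent arrays, 5.87 and 5.71 on those of Fadu, and 6.95 and 6.43 on those of OECM1. Its OECM1 to Fadu difference of 0.90 did not pass, although the OECM1 arrays were above the other 4. RSAD2 was above the dim limit on only 2 of 12 arrays, and SP110 differed by -0.24.

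The IFI genes held the widest differences. IFI27, a mitochondrial protein gene and one of the strongest interferon targets in epithelium, read 5.98 and 5.53 on the Detroit parent arrays, 12.08 and 9.20 on those of Fadu, and 3.78 and 4.54 on those of OECM1. The 3 pairs did not overlap. IFI27 was higher in the Fadu than in the Detroit parent by 4.88 (SE 0.729, adjusted p = 0.00615, limma), 29.5-fold, and lower in the OECM1 than in the Fadu parent by -6.48 (SE 0.729, adjusted p = 0.00121, limma). IFI44, named for its induction by interferon, read 5.26 and 5.37 on the Detroit parent arrays, 8.60 and 7.83 on those of Fadu, and 3.87 and 4.15 on those of OECM1, where both arrays were dim. It differed by 2.90 between Fadu and Detroit (adjusted p = 0.0485, limma) and by -4.20 between OECM1 and Fadu (adjusted p = 0.00706, limma). IFI35, which binds the partner protein NMI, was lower in OECM1 than in Fadu by -2.10 (adjusted p = 0.0139, limma).

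IFI6 and IFI44L did not pass in any parent comparison. IFI6, an inhibitor of cell death, read 8.73 and 5.33 in the Fadu parent, and IFI44L read 9.20 and 4.28. In both genes the lower Fadu array lay below the range of the Detroit parent, which was 5.67 to 5.85 for IFI6 and 4.32 to 4.36 for IFI44L. Of the chemokines that attract T cells, CXCL10 was above the dim limit on 2 of 12 arrays only, Fadu parent replicate 1 at 5.21 and Fadu invasion subline replicate 2 at 5.66, and CXCL11 lay between 2.83 and 3.26.

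**Figure D3:**
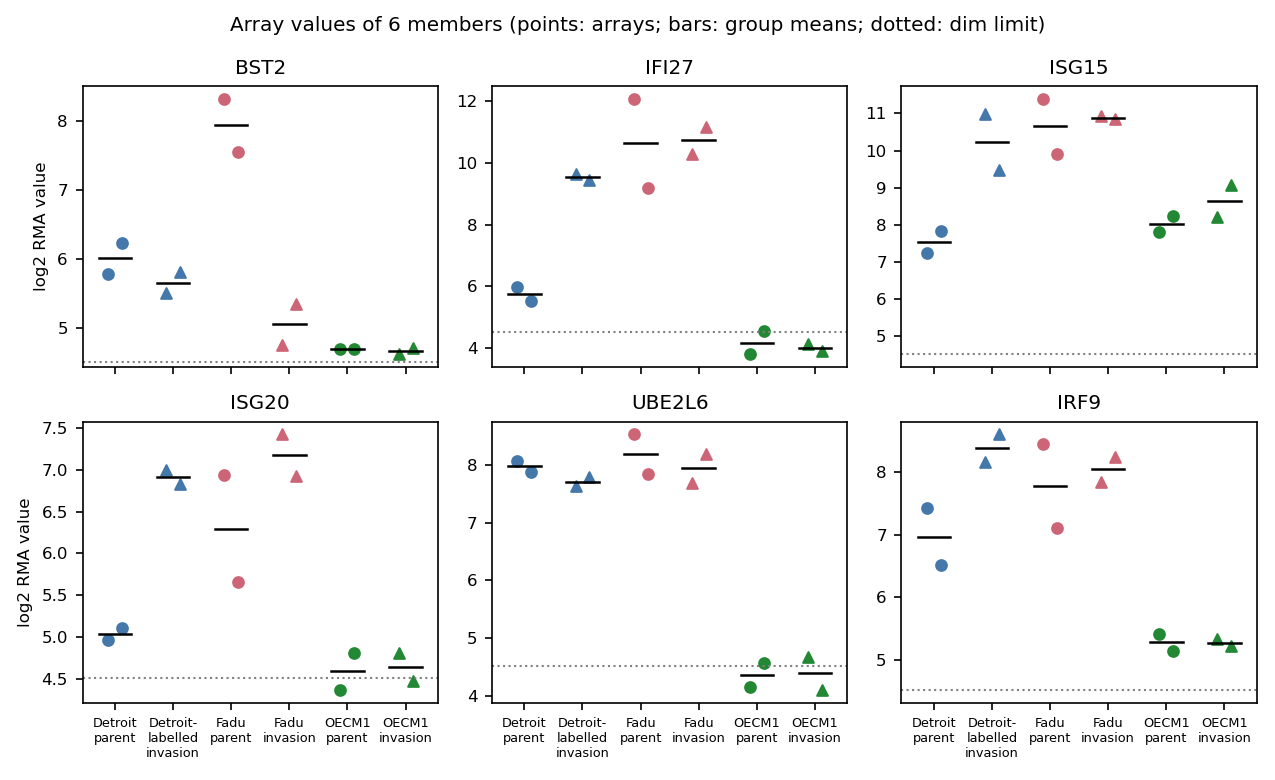
Log2 RMA values of 6 members by group, with circles for parent arrays, triangles for subline arrays, a bar at each group mean and a dotted line at the dim limit of 4.52. BST2 is high only on the Fadu parent arrays (8.31 and 7.55), and IFI27, ISG15 and ISG20 are high on the arrays labelled Detroit invasion subline and low in the Detroit parent.

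The subline comparisons asked whether selection for invasion was accompanied by a change in these genes. In Detroit 3 of 39 members were higher on the arrays labelled subline than in the parent and 0 lower (limma, adjusted p under 0.05), against 1.51% of all genes higher and 1.77% lower. In Fadu 1 member was lower and 0 higher, against 0.0222% (2 genes) and 0% of all genes. In OECM1 0 members and 0% of all genes passed in either direction; at an unadjusted p under 0.05 limma gave 0 members and 300 genes. Median differences over the members were -0.05, 0.00 and 0.03, against -0.01, -0.02 and 0.01 over all tested genes.

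The calls in the Detroit comparison were IFI27, ISG15 and ISG20. IFI27 read 9.64 and 9.44 on the arrays labelled subline against 5.98 and 5.53 in the parent (3.78, SE 0.729, adjusted p = 0.0184, limma), 13.7-fold. ISG15 read 10.98 and 9.47 against 7.26 and 7.83 (2.69, SE 0.578, adjusted p = 0.0295, limma). ISG20 read 7.00 and 6.83 against 4.97 and 5.11 (1.87, SE 0.387, adjusted p = 0.0243, limma), and another ISG20 probe set gave 1.85. In all 3 genes both subline arrays lay above both parent arrays, with no overlap. On the Fadu parent arrays ISG20 read 6.94 and 5.66, and IFI27 read 12.08 and 9.20. Each call was lost without Detroit parent replicate 1 (adjusted p = 0.0810, 0.178 and 0.146 in the order above, limma) and without replicate 2 (0.102, 0.0759 and 0.0943), ISG15 also without subline replicate 1 (0.0608) or, outside the comparison, Fadu invasion subline replicate 1 (0.0558) or 2 (0.0560), and ISG20 without subline replicate 2 (0.0630). With the 4 arrays compared alone, adjusted p was 0.194 for ISG15 and 0.0836 for ISG20 (limma). Squamous markers moved in the same comparison: KRT14 read 11.52 and 9.52 against a parent mean of 4.05 (6.47, adjusted p = 0.000203, limma) and DSG3, a desmosomal cadherin, differed by 3.22 (adjusted p = 0.0239, limma), and their part in the 3 calls was not tested.

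The remaining members of the Detroit comparison differed in both directions. IRF9 (1.42), IFIT1 (1.64), HERC5 (1.14) and HERC6 (0.75) had both subline arrays above both parent arrays without passing, and TRIM22 (-1.82), IFI16 (-1.71), IRF1 (-0.95) and MX1 (-0.82) had both below. TRIM22 read 3.38 and 3.54 on the arrays labelled subline, below the dim limit, against 5.35 and 5.22 in the parent. Over the 39 members, 10 had both subline arrays above both parent arrays and 7 had them below, against 19.9% and 18.8% of all genes.

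Set against the Fadu parent in place of the Detroit parent, the arrays labelled Detroit invasion subline gave 0 calls among members and 0% of all genes, with 9 members and 351 genes at an unadjusted p under 0.05 by limma, and all 9 members lower. The median over members was -0.82 against 0.01 over all genes. Without Fadu parent replicate 1 that median was -0.18. Without replicate 1 of the arrays labelled subline 5 members were called, and 1 was called without Fadu parent replicate 2. The root mean square difference to the Fadu parent was 0.451 over all genes and 1.12 over the members, and to the Detroit parent it was 0.772 and 1.07. Of the 39 members, 11 had a subline mean nearer to the Fadu than to the Detroit parent (28.2%), against 61.2% of all genes. With Fadu parent replicate 2 alone, 21 of 39 members (53.8%) and 55.9% of all genes stood nearer to Fadu. BST2 read 5.51 and 5.81 on these arrays, below both Fadu parent arrays (-2.27, adjusted p = 0.0916, limma).

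In Fadu the subline differed from its parent in BST2. The subline arrays read 4.76 and 5.35 and the parent arrays 8.31 and 7.55, with no overlap (log2 fold change -2.88, SE 0.319, adjusted p = 0.00992, limma). The subline thus read nearer to OECM1, at 4.62 to 4.71 on all 4 arrays, than to its own parent. The adjusted p was 0.178 without Fadu invasion subline replicate 1 and 0.0669 without Fadu parent replicate 1, with limma. Array-wide, BST2 was 1 of 2 genes called, and the other 38 members had differences between -1.31 (TRIM22) and 0.88 (ISG20), none called. Of these, ISG15, IFI27, IFIT1, IFI44 and OASL differed by 0.05 to 0.47 and their duplicates overlapped. Another probe set gave -0.72 for IFI44, and another gave -0.34 for OASL. Over the 39 members 20 differences lay above 0 and 19 below, against 46.8% and 53.2% of all genes. With BST2 counted, 7 members had both subline arrays below both parent arrays and 0 had them above. The share of all genes with that pattern is not given here.

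The difference in BST2 between sublines was itself tested. Its change in Detroit minus its change in Fadu was 2.53 (SE 0.451, adjusted p = 0.0341, limma), the only call among 39 members, against 0.156% of all genes higher and 0.445% lower. An F test over the 3 line effects called BST2 alone among members (F = 23.9, adjusted p = 0.0238, limma), against 0.701% of all genes. The OECM1 minus Fadu difference of 2.85 did not pass (adjusted p = 0.271, limma), where 0% of all genes passed either way and, with limma, 1 member and 212 genes were at an unadjusted p under 0.05. Between OECM1 and Detroit limma called 0 members, against 0.589% of all genes higher and 0.245% lower. At an unadjusted p under 0.05 limma gave 3 of 39 members and 938 of 8992 genes there. The Detroit minus Fadu call was kept without replicate 1 of the subline labelled Detroit and without Fadu parent replicate 2, and was lost without any of the other 10 arrays, with adjusted p from 0.0514 to 0.200 (limma).

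In OECM1 the members were low in both states. BST2 differed by -0.03, UBE2L6 by 0.03, IRF9 by 0.00 and IFI27 by -0.16, the last with 3 of 4 arrays dim. Differences over the 39 members ran from -0.41 (PLSCR1) to 0.94 (IFI6). IFITM3, at 10.00 and 10.31 in the subline against 9.13 and 9.49 in the parent, and IFITM2, at 7.64 and 8.13 against 7.05 and 7.32, had both subline arrays above both parent arrays, without passing. Over the 39 members, 8 had both subline arrays above both parent arrays, against 13.5% of all genes, and 7 had them below, against 11.6%; the 7 were IFIH1, USP18, IFIT5, OAS3, MX1, PLSCR1 and IFI44L, with differences of -0.41 to -0.09. IFIT1 and IFITM1 were high on subline replicate 2 alone, IFIT1 at 5.97 against 4.53 on replicate 1 and IFITM1 at 8.83 against 6.78.

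**Figure D4:**
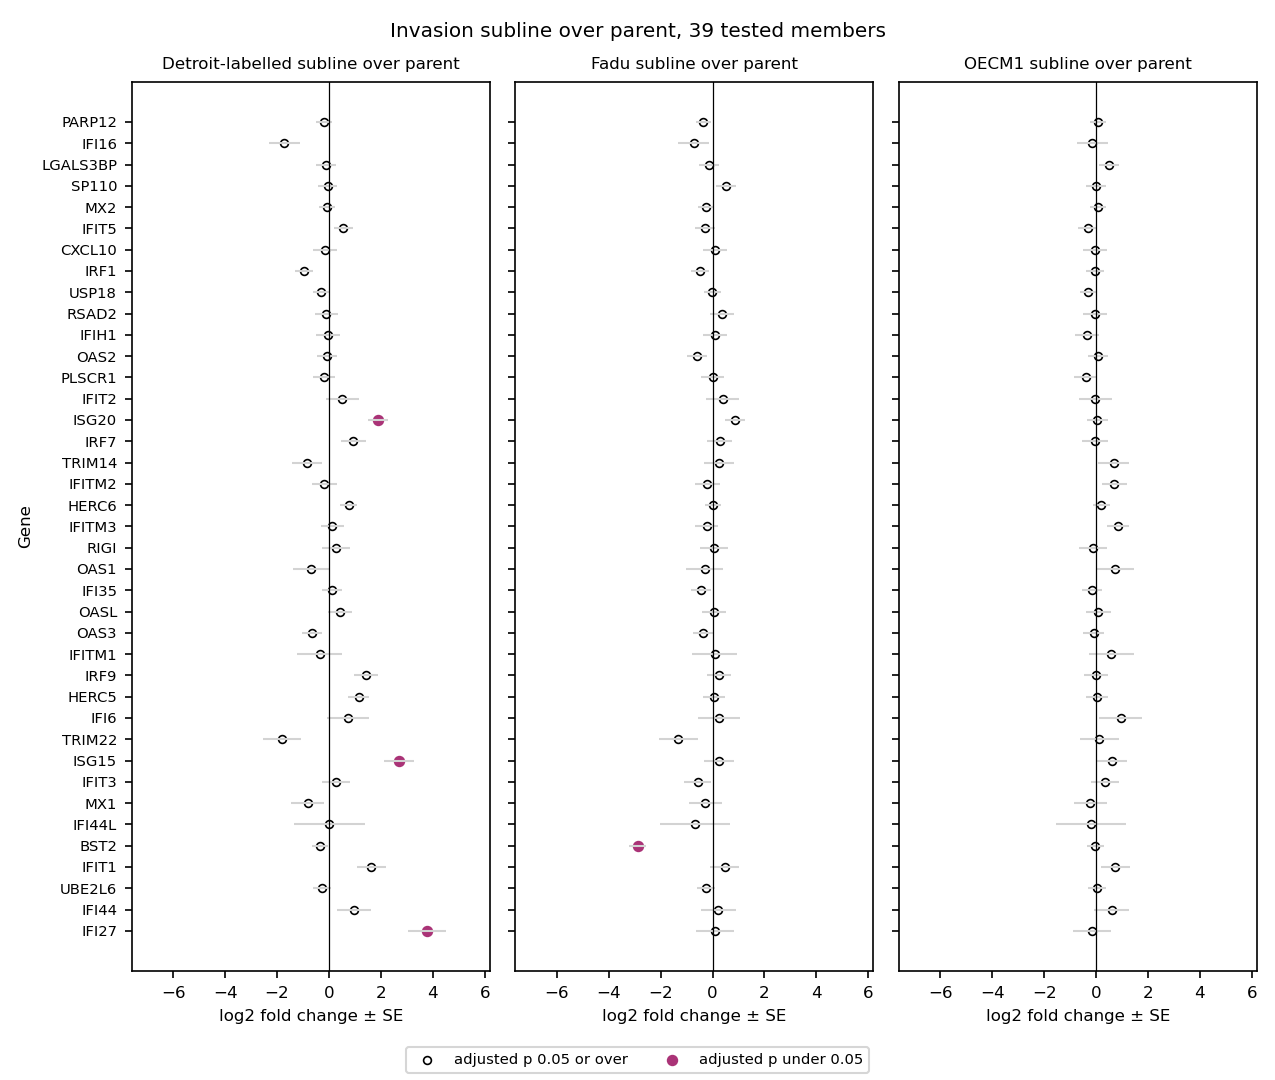
Log2 fold change of subline over parent (points) and its SE from limma (bars) for the 39 tested members in the 3 lines, in the gene order of the parent plot. Filled points passed an adjusted p of 0.05: IFI27, ISG15 and ISG20 higher for the arrays labelled Detroit, BST2 lower in Fadu, and none in OECM1.

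In the Fadu groups and on the arrays labelled Detroit invasion subline, duplicates differed more in these genes than over all genes. The root mean square difference was 1.60 for members against 0.485 for all genes in the Fadu parent, 0.972 against 0.424 in the Fadu subline and 1.11 against 0.891 for the subline labelled Detroit. It was 0.549 against 0.504 in the OECM1 subline, and smaller for members in the Detroit parent (0.461 against 0.581) and the OECM1 parent (0.478 against 0.750). Of the 39 members 38 were higher on Fadu parent replicate 1 than on replicate 2, against 46.2% of all genes, with a median difference of 1.01 against -0.04. IFI44L differed by 4.92 (9.20 against 4.28), IFI6 by 3.41 (8.73 against 5.33), TRIM22 by 3.08 (7.54 against 4.46), IFI27 by 2.88 (12.08 against 9.20) and OAS1 by 2.42 (7.28 against 4.85). These 5 were among the 20 genes that differed most in that direction over the whole array, and 20 members in all differed by more than 1, against 2.85% of all genes. IFI16 alone was lower on replicate 1. By role, the median difference in the Fadu parent was 2.88 for the IFI genes, 1.35 for the transcription factors and 0.70 for the ISG15 system.

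In the Fadu subline the duplicates differed the other way for 27 of 39 members, which were lower on replicate 1 (median -0.30 against 0.00 over all genes). IFI44L (4.15 against 7.98), OAS1 (4.91 against 6.61) and CXCL10 (3.96 against 5.66) were among the 20 genes most higher on replicate 2. The arrays labelled Detroit invasion subline had 28 of 39 members higher on replicate 1, with a median of 0.34 against 0.09 over all genes; IFI44 read 7.67 against 4.89 and IFIT2 6.60 against 4.06. The Detroit parent and both OECM1 groups had medians between -0.15 and -0.07. The ACTB control ratio was 0.55 and -0.23 on the Fadu parent arrays, -0.05 and 0.40 in the Fadu subline, and -0.28 and 0.80 for the subline labelled Detroit. In the Fadu groups the replicate with the higher ratio also had the higher members. In the arrays labelled Detroit invasion subline the lower ratio went with the higher members. The ratio was 0.06 and 0.63 in the OECM1 subline, where 28 of 39 members were lower on replicate 1. It was 0.87 and 0.04 in the OECM1 parent, where 26 of 39 were lower on replicate 1. The part of the ACTB ratio in these differences was not tested beyond its use as a covariate in an alternative fit.

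**Figure D5:**
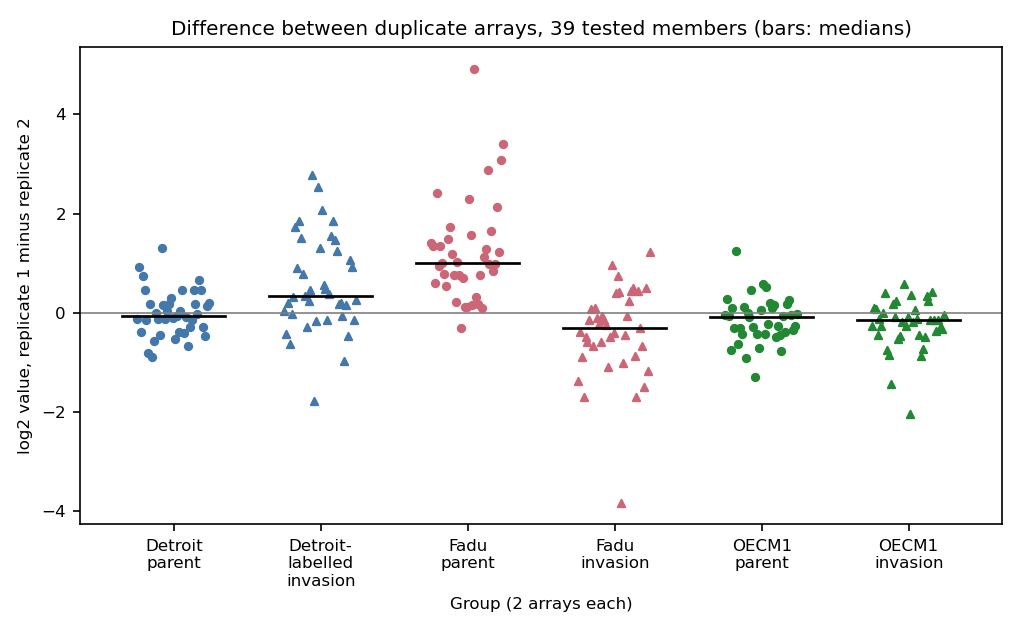
Log2 value on replicate 1 minus replicate 2 for each of 39 tested members (points) in the 6 groups, with a bar at the median. In the Fadu parent 38 of 39 points lie above 0 with a median of 1.01, and in the Fadu subline 27 lie below 0.

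Other genes of the pathway, from lists assembled beside the members, followed the members only in part. Of the 20 interferon genes listed, 14 were on the array and 13 of these lay below the dim limit on every array; the 1 tested, IFNA17, passed in no comparison. Of 9 tested receptors, kinases and STATs, IFNGR2, a chain of the interferon gamma receptor, was lower in the OECM1 than in the Fadu parent (-1.35, adjusted p = 0.0469, limma), and the rest, with IFNAR1, IFNAR2, JAK1, TYK2 and STAT3 among them, passed in no comparison. None of 11 tested genes of interferon induction, which are further sensors, adaptors, kinases and transcription factors, passed, the nearest being the adaptor MYD88 (-1.49 between OECM1 and Fadu, adjusted p = 0.0515, limma), and 0 of 8 negative regulators passed.

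Of 24 further interferon targets tested, 6 were lower in the OECM1 than in the Fadu parent and 0 higher, against 1.50% and 1.43% of all genes, with a median of -0.83. They were PSMB8 and PSMB9, subunits of the immunoproteasome, its activator PSME1, the GTPase GBP1, the helicase DDX60, and NMI, the partner of IFI35. PSMB9 read 7.71 and 7.41 on the Fadu parent arrays, 7.17 and 7.25 on those of Detroit, and 4.69 and 4.72 on those of OECM1 (OECM1 to Fadu -2.85, adjusted p = 0.00188, limma). The Fadu and Detroit arrays lay between 7.17 and 7.71, and those of OECM1 stood apart. Between OECM1 and Detroit 4 of the 24 were lower (NMI, PSMB8, PSMB9 and RTP4), against 1.53% of all genes. GBP1 (2.13) and DDX60 (1.84) were higher in the Fadu than in the Detroit parent, against 1.29% of all genes. Among the sublines, PSMB9 was lower on the arrays labelled Detroit invasion subline, at 5.80 and 4.98, than in the Detroit parent (-1.82, adjusted p = 0.0203, limma). WARS1, a tryptophan tRNA synthetase, was higher (1.78, adjusted p = 0.0483, limma). In this comparison 1.77% of all genes were lower and 1.51% higher. PSMB9 on the arrays labelled Detroit invasion subline was thus also below both Fadu parent arrays. In Fadu and OECM1 0 of the 24 passed between subline and parent (limma, adjusted p under 0.05), where 2 and 0 of all 8992 genes passed.

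The ISRE core was spread over members that differed between lines and members that did not. Of the members lower in the OECM1 than in the Fadu parent, 15 had a promoter in the table and 11 of these held the core (73.3%), against 10 of 17 other members on the array (58.8%). The GAS core was in 4 of the 15 and 5 of the 17. IFIT1, ISG15, BST2, IFI27 and IFITM3, with at least 2 matches each in the windows shown, were lower in OECM1, and so was UBE2L6 with 0. PARP12, with 1 match ending next to the start site, was the member that ran the other way.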

How the data were processed

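Each of the 12 samples was 1 Affymetrix array of biotin-labelled material from Trizol-extracted total RNA, per the labels' protocols. The authors deposited log2 expression values for 22283 probe sets; RMA and Partek 7 are named in the submitters' processing notes, and the annotation and build are not given there. No value was missing, and 0 columns of values were left unused. Arrays have no read depth, and the number of arrays limits the precision.

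Gene symbols came from the platform annotation: of the probe sets, 19065 had 1 symbol, 1043 had several, 2107 were unlisted and 68 were controls, and 0 symbols changed against the reference gene table. A model with 6 group means was fitted to all 12 arrays with limma 3.58.1 in R 4.3.3 (intensity trend), so that the 6 groups shared 1 estimate of the spread, and p-values were adjusted by Benjamini-Hochberg over 8992 genes at 0.05. The code was tested on simulated data. Of the members on the array, 12 had several probe sets. At most 2 of 8992 values were identical within a pair of duplicates, so each array was counted. Replicate numbers are shared between groups but did not pair the arrays: the deviations of same-numbered parent and subline arrays correlated at -0.19 in Detroit, -0.38 in Fadu and -0.40 in OECM1. The negative sign means that same-numbered arrays tended to deviate in opposite directions over all genes. A crosswise pairing was not modelled.

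The members, the pathway lists and the tests were chosen with earlier results of these data known. Every member on the array is named; array values are given for members called between subline and parent, for the 2 called members of largest parent difference in each role, and for the member of widest range in each role. Of the pathway genes called, up to 6 a list are named, and other genes are given by ranges and counts. Alternatives covered scaling, the dim filter, the probe set rule, the trend, array weights, the ACTB ratio, a replicate block and leaving out arrays.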

Additional observations from a re-analysis of the deposited data

Results flagged for a closer look

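BST2 was the 1 member whose difference between subline and parent was not the same in the 3 lines by a test of that difference. Its change in Detroit minus its change in Fadu was 2.53 on the log2 scale (SE 0.451, adjusted p = 0.0341, limma), and an F test over the 3 lines gave F = 23.9 (adjusted p = 0.0238, limma). The subline and parent means differed by -2.88 in Fadu, -0.35 in Detroit and -0.03 in OECM1, and in OECM1 all 4 arrays lay between 4.62 and 4.71, close to the dim limit of 4.52. The F test call was lost without Detroit parent replicate 1, Fadu invasion subline replicate 1, Fadu parent replicate 1 or any 1 of the 4 OECM1 arrays, with adjusted p from 0.0531 to 0.147 (limma). The Detroit value compares groups as labelled.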

How the results depend on the processing

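Of 30 calls of single members, 5 were kept under every alternative run: UBE2L6 between OECM1 and either other parent, IFI27 between Fadu and either other parent, and BST2 between OECM1 and Fadu. Over 683 such settings 533 kept the call and 0 reversed it. With the replicate number as a block (replicate block), the members called fell to 0 for the Detroit subline, 0 for the Fadu subline, 1 between the Fadu and Detroit parents, 7 between the OECM1 and Fadu parents, 0 for the Detroit minus Fadu difference and 0 for the F test; the numbers did not pair the arrays, so these counts say nothing of a weaker effect. Array weights gave 0 for the Detroit subline, a fit to the 4 arrays compared gave 0 for the Fadu subline, and no filter on dim genes gave 0 for the Detroit minus Fadu difference. Between the OECM1 and Detroit parents, 2 members were called with the mean of all probe sets, 3 with the ACTB ratio as a covariate, 3 with the 4 arrays compared alone and 5 without both arrays labelled Detroit invasion subline. The 2 scaling alternatives moved no count by more than 1.5 times.

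Leaving out 1 array at a time, the calls ranged from 0 to 5 for the Detroit subline, 0 to 1 for the Fadu subline, 1 to 9 between the Fadu and Detroit parents, 1 to 5 between the OECM1 and Detroit parents and 3 to 22 between the OECM1 and Fadu parents. They ranged from 0 to 5 when the subline labelled Detroit was set against the Fadu parent, 0 to 2 for the Detroit minus Fadu difference, 0 to 1 for OECM1 minus Detroit and 0 to 2 for the F test. The 5 calls between the OECM1 and Detroit parents came without either Fadu parent array or either array labelled Detroit invasion subline. The 1 call for OECM1 minus Detroit came without Fadu parent replicate 1 or 2, and the 5 against the Fadu parent came without replicate 1 of the subline labelled Detroit. Where an array was left out, the lone array of its group was assumed to vary like the other groups. The matching counts over all genes are not given, so these ranges cannot be read as particular to the members. The median over the members ranged from -0.57 to 0.44 for the Fadu subline, 0.11 to 1.49 between the Fadu and Detroit parents, -2.38 to -1.33 between the OECM1 and Fadu parents and -1.24 to -0.18 between the subline labelled Detroit and the Fadu parent. Both ends of these 4 ranges came without Fadu parent replicate 1 or 2, and the cause of the other changes was not tested.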
